A study of Arabidopsis thaliana with 12 samples.

Results

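Transposable elements are stretches of DNA that can move or copy themselves within a genome, and the annotation behind these tables gives each annotated copy in Arabidopsis thaliana a locus code of its own. The 367 expressed transposable element (TE) loci were selected on their read counts, as those with at least 10 estimated reads in at least 3 of 12 root tip libraries, out of 30576 TE loci and 67714 loci in all. The rule reads the same counts as every comparison that follows, so that a locus low in most libraries could enter only through the libraries in which it was high, and the level of each locus is given as a description. The same rule was met by 21614 other loci, which is 58.2% of the other loci, against 1.20% of the TE loci.

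RNA was sequenced from root tips of 4 groups with 3 biological replicates each. The groups were the triple mutant after bleomycin, the triple mutant on control medium, Col-0 after bleomycin and Col-0 on control medium. The triple mutant carries scl5, scl21 and pat1, mutations in 3 genes for GRAS-domain transcription factors with no allele numbers in the labels, and Col-0 is the wild type. Bleomycin, a drug that breaks DNA, was given at 0.5 µg/ml for 24 h to seedlings moved to drug or control medium 7 days after sowing, about 100 seeds went into a sample, and the last 0.2 cm of the roots was taken. Per the labels each library pools the tips of many seedlings, so that fewer cells with a transcript and less of it per cell cannot be told apart.

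In plants most TE copies are kept silent by DNA methylation and by histone H3 lysine 9 methylation. Methylation at CG sites is maintained by MET1, methylation at other sites by the chromomethylases and by DRM enzymes guided by small RNAs, and the nucleosome remodeller DDM1 opens heterochromatin to the methylating enzymes. Loss of these activities is known to release TE transcripts in Arabidopsis. The TE loci are listed here by code alone: the files pair the codes with no family name, coordinates or sequence, and none is used here. The digit before TE in a code is the chromosome.

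The libraries held 36.3 to 40.9 M estimated reads, and TE loci took 0.0666% to 0.0915% of them. The 367 loci held 92.4% to 94.6% of the TE reads of a library, or 22831 to 32600 reads, and 28167 TE loci had 0 reads in every library. SCL5 had 0 to 2 reads in the 6 triple mutant libraries, against 1292 to 1761 in the 6 Col-0 libraries, SCL21 had 0 reads in each triple mutant library, against 380 to 586 in Col-0, and PAT1 had 327 to 690, against 965 to 1713, so each library matched its genotype label. The 6 root tip markers (PLT1, PLT2, WOX5, SCR, SHR and SMB) were detected in every library and summed to 138 to 165 reads per 1000000 (CPM) in triple mutant tips after bleomycin, 159 to 189 in triple mutant controls, 158 to 170 in Col-0 tips after bleomycin and 165 to 208 in Col-0 controls. The 6 photosynthesis genes, markers of green tissue, summed to 23.4 to 66.4, 25.6 to 45.3, 29.1 to 66.6 and 22.8 to 46.4 CPM in the same 4 groups, with up to 2 of the 6 at 0 in a library.

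TE transcription was concentrated in few loci. Of the 367 loci, 99 averaged at least 1 CPM and 17 at least 10 CPM, and the median locus averaged 0.436 CPM, against 14.8 CPM for the other loci that met the rule. AT5TE72200 alone held 15.6% of the reads of the 367 loci and the 10 highest loci held 44.2%. Chromosomes 1 to 5 carried 73, 66, 75, 58 and 95 of the loci. On chromosome 5 1.46% of the TE loci were expressed by this rule and they held 32.3% of the reads, against 1.04% and 20.7% on chromosome 1. The expressed loci had a median length of 546 bases (47 to 21052), against 308 bases for all TE loci, and the share that met the rule was 0.164% of loci of 1 to 100 bases and 4.17% of loci over 3000 bases. The rule counts reads and not reads per base, and its part in this difference was not tested.

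The threshold cut through a continuous range. In 23 loci the library with the third-highest count had exactly 10 reads, among them AT1TE58465, AT1TE66120 and AT1TE72880. Just outside, AT3TE92015, AT3TE08230 and AT5TE04245 had 9.97, 9.94 and 9.69 reads in that library. At least 10 reads were present in all 12 libraries for 65 loci and in exactly 3 libraries for 71, and 219 loci had such a library in each of the 4 groups. Only 2 loci reached 10 reads in the libraries of a single group, 13 in the libraries of 1 genotype and 17 in those of 1 medium.

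The locus with most reads, AT5TE72200 (1226 bases), was also the steadiest of the 10 highest. It had 110, 120 and 97.4 CPM in triple mutant tips after bleomycin, 121, 118 and 114 in triple mutant controls, 122, 118 and 91.3 in Col-0 tips after bleomycin and 113, 122 and 107 in Col-0 controls. The 4 groups overlapped, and the highest library was 1.34 times the lowest. Its fitted log2 fold change was -0.11 for bleomycin in the triple mutant and -0.05 in Col-0 (adjusted p 0.601 and 0.853, edgeR's quasi-likelihood test). That test with Benjamini-Hochberg adjustment over 21981 loci gives every adjusted p of this text unless DESeq2, another setting or the permutation test is named.

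AT1TE41800 (3564 bases) held the next largest share of reads. It had 28.9, 49.8 and 55.6 CPM in triple mutant tips after bleomycin, 33.1, 49.9 and 50.7 in triple mutant controls, 43.7, 71.4 and 39.5 in Col-0 tips after bleomycin and 51.8, 73.3 and 79.0 in Col-0 controls. All 3 control libraries of the triple mutant lay below all 3 of Col-0, but the fitted difference of -0.61 on the log2 scale did not pass the test (adjusted p 0.926). AT3TE51710, AT5TE72580, AT2TE12510, AT3TE20540, AT3TE60870 and AT2TE54200 had 12-library medians of 15.0 to 24.6 CPM, and their highest library was 1.77 to 3.79 times their lowest. AT1TE50305 was less steady, with 2.32, 15.5 and 9.67 CPM in triple mutant tips after bleomycin, 6.17, 9.82 and 52.1 in triple mutant controls, 2.62, 27.5 and 14.5 in Col-0 tips after bleomycin and 4.06, 14.5 and 25.1 in Col-0 controls. Replicate 1 was the lowest library in each of its 4 groups, which overlapped.

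**Figure D1:**
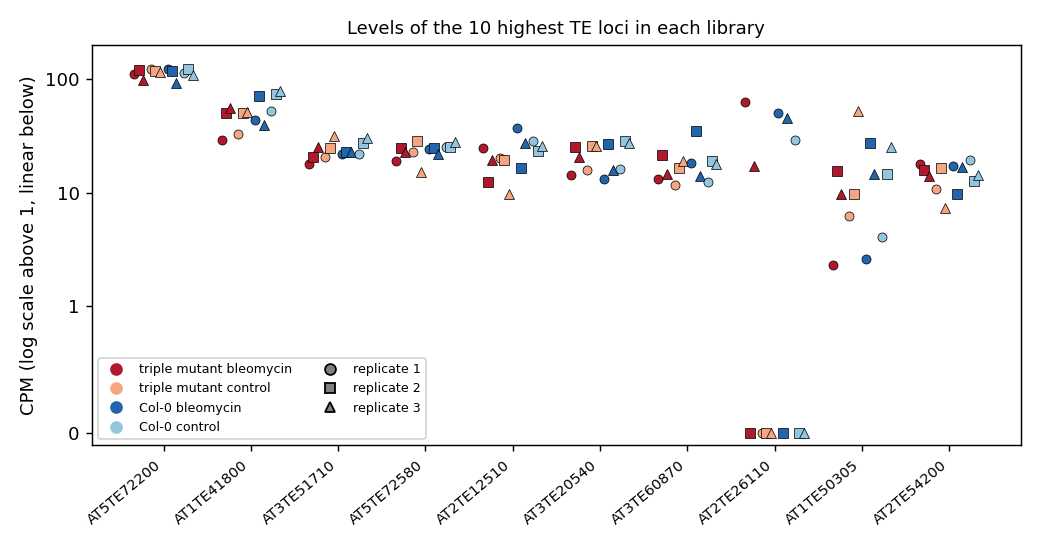
CPM (vertical axis, logarithmic above 1 and linear below) of the 10 TE loci with most reads (horizontal axis) in each of 12 libraries, with colour for the group and marker shape for the replicate number. AT5TE72200 stays between 91.3 and 122 CPM, while AT2TE26110 is at 0 in 7 libraries and at up to 62.3 CPM in the others.

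AT2TE26110 (577 bases) was high in some libraries of a group and at 0 in others. It had 62.3, 0 and 17.0 CPM in triple mutant tips after bleomycin, 0 in each triple mutant control, 50.2, 0 and 45.2 CPM in Col-0 tips after bleomycin and 28.9, 0 and 0 in Col-0 controls. Its counts above 0 were 2360 and 675 reads in triple mutant tips after bleomycin, 2030 and 1701 in Col-0 tips after bleomycin and 1180 in Col-0 control 1. The 7 libraries at 0 included replicate 2 of every group. The fitted change after bleomycin passed the test in neither genotype nor over both (adjusted p 0.122, 0.667 and 0.0696 in the triple mutant, in Col-0 and over both). Other settings did call it higher. In the triple mutant these were DESeq2 (adjusted p 4.36e-08), no filter on low counts (0.0448) and a replicate block (0.0169), within a range of 4.36e-08 to 0.269 over 19 alternatives. Over both genotypes they were the same 3 (2.1e-05, 0.0201 and 0.00605) and the omission of Col-0 bleomycin 2 (0.0455) or Col-0 control 1 (0.0148), within 2.1e-05 to 0.138 over 18. AT3TE51710 was called lower over both genotypes under the block (log2 fold change -0.25, adjusted p 0.0446), and no other of the 10 highest loci was called after bleomycin in the triple mutant or over both genotypes under any alternative.

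Because CPM counts reads regardless of length, the order changes per length. By mean transcripts per 1000000 (TPM), a deposited value corrected for length, AT1TE37065 (223 bases) came first at 351 TPM, with libraries between 193 and 473. It was followed by AT3TE05960 at 230, AT1TE69295 at 228, AT5TE79650 at 147 and AT5TE72200 at 116 TPM. Of the 10 highest loci by reads, 2 were also among the 10 highest by TPM.

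Many expressed TE loci were absent from some libraries. Of the 367, 257 had 0 reads in at least 1 library and 134 in at least 3. The number at 0 was 32, 78 and 41 in triple mutant tips after bleomycin, 76, 55 and 190 in triple mutant controls, 29, 86 and 39 in Col-0 tips after bleomycin and 25, 34 and 107 in Col-0 controls. The number of all TE loci with at least 1 read ran the other way, 851, 600 and 764 in triple mutant tips after bleomycin, 615, 683 and 305 in triple mutant controls, 1022, 566 and 796 in Col-0 tips after bleomycin and 958, 795 and 518 in Col-0 controls. Triple mutant control 3 stood apart on both counts, although its 38.6 M reads lay within the range of the others.

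**Figure D2:**
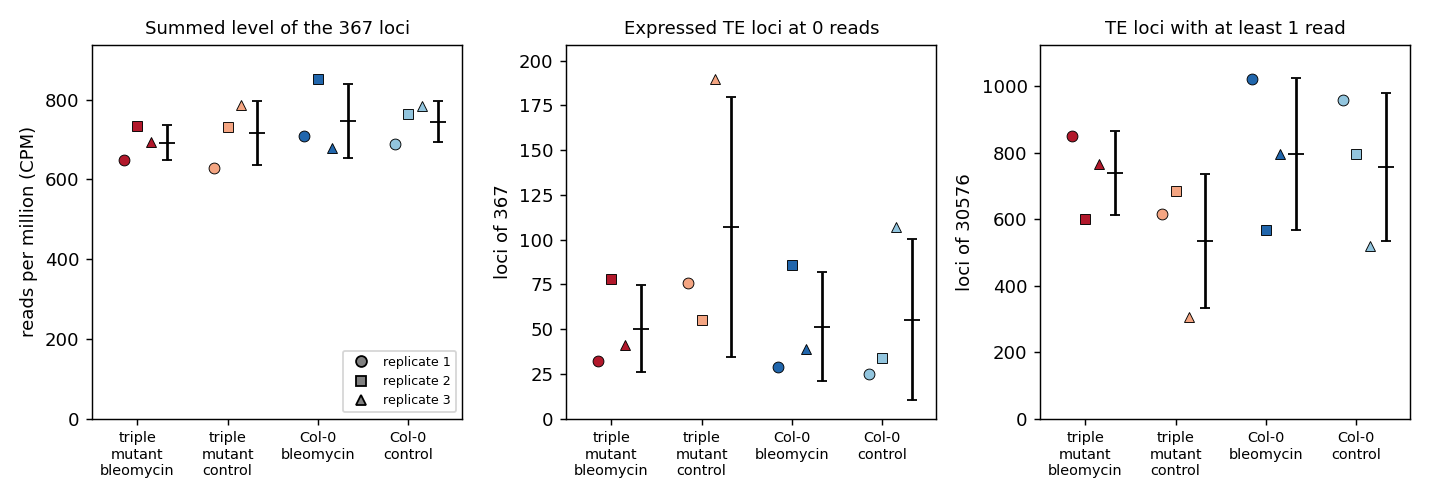
Summed CPM of the 367 TE loci, number of these loci at 0 reads, and number of all 30576 TE loci with at least 1 read, per library and group (points; marker shape gives the replicate) with the group mean and SD (bars, n = 3). The summed level overlaps between the 4 groups, and triple mutant control 3 has most loci at 0 (190) and fewest with a read (305).

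Zeros in that library extended to other loci. Among loci with a mean below 10 reads, 76.1% of the expressed TE loci and 80.7% of the other loci were at 0 in triple mutant control 3, against medians over the 12 libraries of 24.3% and 23.6%. At high levels TE loci were at 0 more often than other loci. Of 48 TE loci with a mean of at least 100 reads, a median of 4.17% were at 0 in a library (0% to 14.6%), against 0.0561% of 16926 other loci (0.0295% to 0.561%). The spread of replicates showed the same at that level, with a median SD within groups of 0.625 for TE loci and 0.213 for other loci on the log2(CPM + 0.5) scale, while at means of 10 to 20 reads it was 0.461 and 0.462. The mean level within the top class is higher for other loci, and its part in these differences was not tested.

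**Figure D3:**
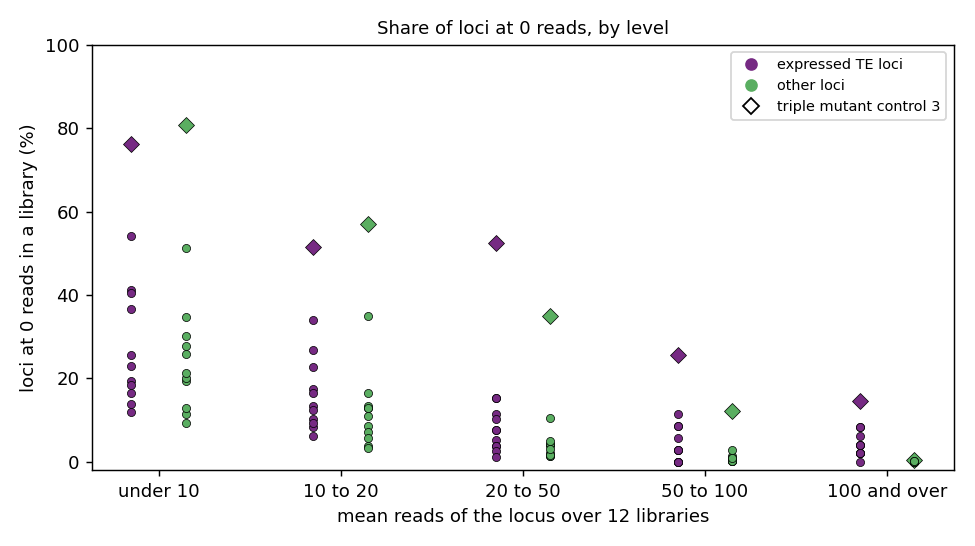
Share of loci at 0 reads (vertical axis, percent) in each of 12 libraries, for expressed TE loci and other loci that met the same read rule, by mean reads of the locus over the libraries (horizontal axis); diamonds mark triple mutant control 3. The 2 kinds of loci run together at low means, while at 100 reads and over TE loci reach 14.6% and other loci 0.561%.

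In 10 of the 48 highest TE loci at least 1 library had 0 reads. These 10 were singled out after their values were seen. AT5TE17325 had 203, 151 and 356 reads in triple mutant tips after bleomycin, 172, 204 and 0 in triple mutant controls, 219, 199 and 182 in Col-0 tips after bleomycin and 271, 203 and 197 in Col-0 controls. AT4TE28200 had 349, 534 and 367 reads in triple mutant tips after bleomycin, 212, 184 and 304 in triple mutant controls, 480, 0 and 367 in Col-0 tips after bleomycin and 358, 248 and 358 in Col-0 controls. In both loci a single replicate was empty while the others of its group were high. AT5TE87550 was the reverse, with 1668 reads in Col-0 bleomycin 2, 115 in Col-0 bleomycin 3, 26.4 in triple mutant control 3 and 0 in the other 9 libraries. Counts of 143 of the 367 loci were fractional in at least 6 libraries, which means that Salmon divided reads between that locus and other transcripts, and 152 loci had whole counts in all 12. The part of this division in the zeros was not tested.

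The total output of the 367 loci did not differ beyond the spread of replicates in any comparison. It was 692 ± 43.9 CPM in triple mutant tips after bleomycin, 716 ± 79.8 in triple mutant controls, 747 ± 93.1 in Col-0 tips after bleomycin and 745 ± 50.9 in Col-0 controls (SD, n = 3 each). Bleomycin minus control was -23.5 CPM in the triple mutant (exact two-sided permutation p = 0.8) and 1.34 CPM in Col-0 (exact permutation p = 1). Triple mutant minus Col-0 was -29.4 CPM on control medium (exact permutation p = 0.7) and -54.2 CPM after bleomycin (exact permutation p = 0.5). With 3 libraries against 3 this permutation test cannot go below 0.10, and all 4 p, adjusted over these 4 comparisons alone, were 1.

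Single TE loci passed the test after bleomycin. In triple mutant tips 7 of the 367 loci were called higher and 0 lower at an adjusted p of at most 0.05, and in Col-0 tips 1 was called higher and 0 lower. The background, the share of all 21981 tested loci called, was 7.48% in the triple mutant (4.24% higher, 3.23% lower) and 6.55% in Col-0 (4.24% higher, 2.31% lower). The shares of the TE loci, 1.91% and 0.272%, were below it. At an unadjusted p of at most 0.05, 41 TE loci passed in the triple mutant (11.2%, background 24.8%) and 14 in Col-0 (3.81%, background 23.7%). DESeq2 called 23 in the triple mutant, 18 higher and 5 lower (background 13.1%), and 5 in Col-0, 4 higher and 1 lower (background 12.1%). Of these, 6 of the 23 and 1 of the 5 were also called by edgeR, and 10 and 3 had a group without a read. The fitted median over the TE loci was 0.05 (log2) in the triple mutant and -0.03 in Col-0, against 0.03 and 0.01 over the other loci. Of the 7 calls in the triple mutant, 2 were loci that reached 10 reads in bleomycin libraries only (AT1TE71950 and AT1TE88160): they met the read rule through the medium in which they were high, so they are described without a p, and the count of calls includes them. AT5TE45925, AT3TE02890 and AT4TE12660 reached 10 reads in 1, 1 and 2 control libraries, short of the 3 libraries of the rule. They too met it only with bleomycin libraries, and their adjusted p do not allow for that. With groups at 0 reads set to 3 reads, and loci of at most 3 reads in both groups left out, the TE medians were 0.06 and -0.02.

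AT5TE45925 (4592 bases) was called in both genotypes. It had 67, 112 and 59 reads in triple mutant tips after bleomycin, 7, 8 and 0 in triple mutant controls, 107, 208 and 78.8 in Col-0 tips after bleomycin and 9, 15 and 9 in Col-0 controls. Every bleomycin library was above every control library, and its reads were whole in all libraries but 1. It reached 10 reads in 6 bleomycin libraries and 1 control library. It thus met the read rule through bleomycin libraries, and its adjusted p do not allow for that. The levels were 2.01 ± 0.679 CPM in triple mutant tips after bleomycin and 0.134 ± 0.117 CPM in triple mutant controls, a ratio of 15.0 (SD, n = 3 each), and the log2 fold change was 3.88 (SE 0.84, adjusted p 0.0172). In Col-0 they were 3.39 ± 1.79 CPM after bleomycin and 0.287 ± 0.106 CPM on control medium, a ratio of 11.8 (SD, n = 3 each), with a log2 fold change of 3.56 (SE 0.80, adjusted p 0.0224). The call was lost in the triple mutant when its bleomycin 2 library was left out (adjusted p 0.0618) and in a fit of the compared groups only (adjusted p 0.0656). In Col-0 the libraries whose omission ended it were bleomycin 2 (adjusted p 0.0751), control 2 (0.0795) and control 3 (0.0969). The bleomycin effect in the triple mutant minus that in Col-0 was 0.32 (log2, SE 1.04, adjusted p 1).

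The other 6 loci were called in the triple mutant and not in Col-0. For 5 of them the interaction of genotype and bleomycin did not pass the test (adjusted p 1 each), and for AT1TE71950, with 3 groups at 0, it could not be estimated. AT1TE71950 (4814 bases) had 18.7, 93.3 and 37.2 reads in triple mutant tips after bleomycin and 0 in the other 9 libraries. This is at least 47.0-fold higher than in triple mutant controls, with 3 reads over the group as the floor, and DESeq2 did not call it. AT1TE72060, of the same length, had nearly the same fractional counts in those 3 libraries (18.6, 93.3 and 37.2 reads) and 0 in each triple mutant control, but also 83.6 reads in Col-0 bleomycin 1 and 49 in Col-0 control 2, and it was not called (adjusted p 0.136). The reads of these loci were divided between copies, so the absence of AT1TE71950 reads from Col-0 is uncertain. It is among the 2 loci that reached 10 reads in a single group. AT1TE88160 (462 bases) had 12.5, 44.4 and 30.7 reads in triple mutant tips after bleomycin, 0 in each triple mutant control, 0, 32.4 and 22.5 in Col-0 tips after bleomycin and 1.07, 5.56 and 8.25 in Col-0 controls. In the triple mutant the groups were apart, at least 27.7-fold, and in Col-0 they overlapped. AT3TE02890 (150 bases) had 14, 13 and 4 reads in triple mutant tips after bleomycin, 0 in each triple mutant control, 5, 12 and 3 in Col-0 tips after bleomycin and 8, 8 and 13 in Col-0 controls. It was at least 9.96-fold higher after bleomycin in the triple mutant (adjusted p 0.044), and the triple mutant controls were the lowest of the 4 groups while the other 3 groups overlapped. AT3TE02890 met the read rule only with bleomycin libraries, and its adjusted p does not allow for that.

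AT2TE45520, AT4TE12660 and AT5TE71590 had a higher CPM after bleomycin in every library of both genotypes, whichever control library of the same genotype they are set against. AT2TE45520 (352 bases) had 4.28, 6.32 and 2.54 CPM in triple mutant tips after bleomycin, 2.02, 0.794 and 1.46 in triple mutant controls, 2.42, 4.49 and 3.15 in Col-0 tips after bleomycin and 1.66, 1.35 and 2.27 in Col-0 controls. Its counts were fractional in all 12 libraries, and the log2 fold change in the triple mutant was 1.63 (SE 0.46, adjusted p 0.0478). AT4TE12660 (298 bases) had 53, 87 and 37 reads in triple mutant tips after bleomycin, 8, 4 and 0 in triple mutant controls, 82, 39 and 27 in Col-0 tips after bleomycin and 29, 8 and 15 in Col-0 controls. In Col-0 its separation rested on the scaling to library totals, with 27 reads in bleomycin 3 and 29 in control 1. Without triple mutant control 1 its ratio in the triple mutant was 28.5 in place of 13.8 (adjusted p 0.0398 with all libraries). AT4TE12660 met the read rule only with bleomycin libraries, and its adjusted p does not allow for that. AT5TE71590 (651 bases) had 2.97, 3.27 and 1.01 CPM in triple mutant tips after bleomycin, 0.542, 0 and 0.152 in triple mutant controls, 2.62, 2.13 and 2.56 in Col-0 tips after bleomycin and 1.71, 0.626 and 0.628 in Col-0 controls. Its log2 fold change in the triple mutant was 3.35 (SE 0.94, adjusted p 0.0486), and its ratio moved to 31.7 without triple mutant control 1.

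**Figure D4:**
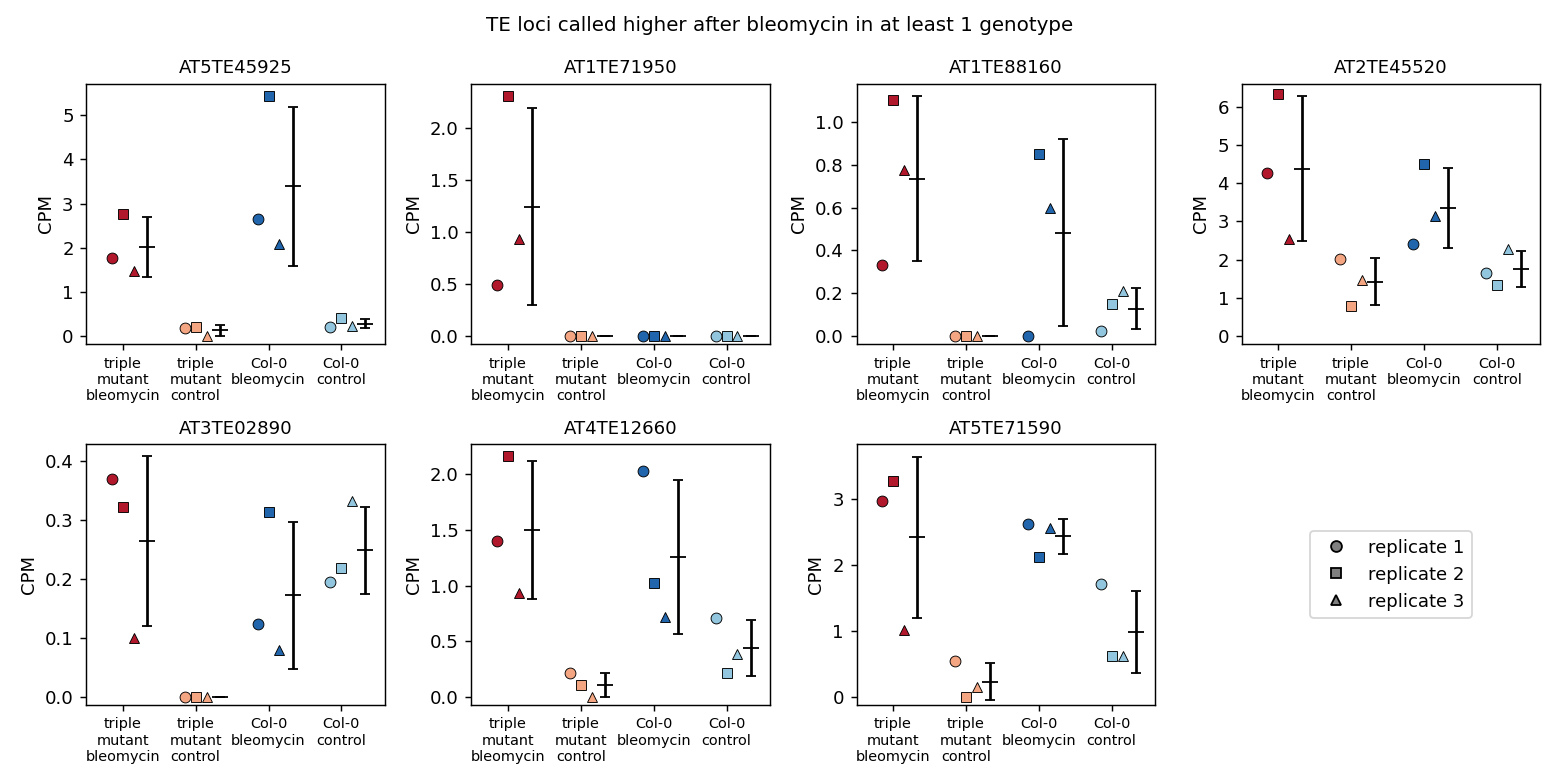
CPM of the 7 TE loci called higher after bleomycin in at least 1 genotype, per library (points; marker shape gives the replicate) and group, with the group mean and SD (bars, n = 3). AT5TE45925 is higher after bleomycin in both genotypes (2.01 and 3.39 CPM on average after bleomycin in triple mutant and Col-0), and AT1TE71950, which shares reads with AT1TE72060, is above 0 in triple mutant tips after bleomycin and at 0 elsewhere.

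The 7 calls in the triple mutant depended on single libraries. Without triple mutant bleomycin 2 all 7 were lost (adjusted p 0.0618 to 0.17). Without triple mutant bleomycin 1, control 2 or control 3, 6 were lost each time (adjusted p 0.0911 to 0.134, 0.085 to 0.149 and 0.057 to 0.117), and AT5TE45925 was the call that held. Without triple mutant bleomycin 3 or control 1, 2 and 3 calls were lost (0.069 to 0.0697 and 0.0695 to 0.0878). Col-0 libraries enter through the shared estimate of spread: omitting bleomycin 3 or control 2 of Col-0 ended 5 calls, control 3 ended 4, bleomycin 2 ended 3, and bleomycin 1 or control 1 ended 2 (adjusted p 0.0501 to 0.0696 over these). Triple mutant control 3, in which 190 of the 367 loci were at 0, is among the controls of each of these calls, and without it 1 call was left. A fit of the 2 triple mutant groups alone called 6 loci, 4 higher and 2 lower, of which AT1TE71950 was the only one of the 7, the other 6 having adjusted p of 0.0501 to 0.147.

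A mean of the 2 bleomycin effects in the same fit, added after the data had been seen, gave 15 called TE loci, 12 higher and 3 lower. The background was 12.7% of all loci called higher and 10.5% called lower (23.2% in either direction), against 3.27% and 0.817% of the TE loci. At an unadjusted p of at most 0.05, 32 TE loci passed (background 36.6%), and DESeq2 called 24 (background 27.8%), of which 14 were among the 15. Of the 15, 5 were called in a single genotype or in both as described above and 10 were not. In 6 of the 12 that were higher, 10 reads were reached in bleomycin libraries only (AT1TE88160, AT2TE41390, AT3TE13090, AT3TE44530, AT3TE83365 and AT4TE47000), so that these met the read rule through that medium and are described without a p. AT5TE45925, AT5TE15240 and AT4TE12660 reached 10 reads in 1, 1 and 2 control libraries. They too met the rule only with bleomycin libraries, and their adjusted p do not allow for that. AT5TE45925 had a mean log2 fold change of 3.72 (SE 0.58, adjusted p 0.000952). The calls of AT5TE45925, AT1TE88160, AT2TE45520, AT3TE13090, AT4TE12660 and AT3TE88380 held under all 18 alternatives, 6 of the 15, with AT1TE88160 and AT3TE13090 among those that entered through bleomycin libraries. The alternatives reuse the same counts, so holding under them does not remove that selection.

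AT3TE88380 (435 bases) was the called locus with most reads, and it was lower after bleomycin. It had 8.20, 11.1 and 8.89 CPM in triple mutant tips after bleomycin, 12.7, 14.9 and 13.9 in triple mutant controls, 7.01, 7.71 and 7.76 in Col-0 tips after bleomycin and 10.8, 10.5 and 10.3 in Col-0 controls. Within each genotype the groups did not overlap, and the triple mutant was above Col-0 in both media. The mean log2 fold change after bleomycin was -0.52 (SE 0.11, adjusted p 0.00609), made of -0.56 in the triple mutant and -0.49 in Col-0 (adjusted p 0.0525 and 0.0856). The difference between the genotypes over both media, 0.36 on the log2 scale, had an unadjusted p of 0.00726 and an adjusted p of 1.

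The other 2 loci that fell after bleomycin over both genotypes were AT2TE35695 and AT5TE37825. AT2TE35695 (1189 bases) had 0.651, 1.39 and 0.820 CPM in triple mutant tips after bleomycin, 1.99, 0.608 and 2.09 in triple mutant controls, 1.12, 0.971 and 0.924 in Col-0 tips after bleomycin and 3.21, 3.51 and 2.50 in Col-0 controls. The groups were apart in Col-0 and overlapped in the triple mutant, with a mean log2 fold change of -1.16 (SE 0.36, adjusted p 0.0363). AT5TE37825 (2990 bases) averaged 5.15 ± 1.31 CPM in triple mutant tips after bleomycin, 8.89 ± 3.59 in triple mutant controls, 4.66 ± 0.629 in Col-0 tips after bleomycin and 9.06 ± 3.79 in Col-0 controls (SD, n = 3 each). The groups were apart in the triple mutant and overlapped in Col-0, with a mean log2 fold change of -0.87 (SE 0.25, adjusted p 0.0243). All 3 loci that fell had fractional counts in all 12 libraries.

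Among the loci that rose over both genotypes, AT3TE13090 and AT4TE47000 had no read in any of the 6 control libraries. AT3TE13090 (417 bases) had 16, 43 and 6 reads in triple mutant tips and 4, 29 and 1 in Col-0 tips after bleomycin, whole in every library and at least 32.2-fold above the controls (3 reads over 6 libraries). AT4TE47000 (606 bases) had 48.9, 0 and 0 reads in triple mutant tips and 89.9, 0 and 45.8 in Col-0 tips after bleomycin, at least 60.4-fold, and 3 of the 6 bleomycin libraries were as empty as the controls. AT3TE83365 had 17.7, 73.7 and 10.8 reads in triple mutant tips after bleomycin, 0 in each triple mutant control, 10.2, 0 and 0 in Col-0 tips after bleomycin and 1, 0 and 0 in Col-0 controls. With 1 read in the controls its ratio of pooled reads was 110 (exact 95% interval 19.3 to 4376). This interval and the floors cover counting error only, and not the entry of these loci through bleomycin libraries.

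The remaining 4 called loci also had thin controls, except AT5TE64805. AT5TE64805 (537 bases, whole counts) had 61, 164 and 161 reads in triple mutant tips after bleomycin, 23, 72 and 91 in triple mutant controls, 72, 250 and 122 in Col-0 tips after bleomycin and 65, 48 and 47 in Col-0 controls. The groups were apart in Col-0 and overlapped in the triple mutant (mean log2 fold change 1.24, SE 0.40, adjusted p 0.0411). AT2TE41390 had 4.05 reads in the 6 control libraries, AT5TE15240 10.2 and AT3TE44530 13.3, against 161, 171 and 154 reads in the 6 bleomycin libraries (adjusted p 0.0254 for AT5TE15240). Those control reads came from 1 library each for AT2TE41390 (triple mutant control 2) and AT5TE15240 (Col-0 control 1), and from triple mutant control 2 and Col-0 control 1 for AT3TE44530. The adjusted p of AT5TE15240 also follows entry through bleomycin libraries.

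Leaving out a library removed 2 to 8 of the 15 calls. Among Col-0 libraries, control 2 ended 8 calls when omitted (adjusted p 0.054 to 0.0983), control 3 ended 6 (0.0537 to 0.0882), bleomycin 1 ended 6 (0.0528 to 1), bleomycin 2 and bleomycin 3 ended 3 each (0.0598 to 0.124 and 0.0554 to 0.0703) and control 1 ended 2 (0.0507 to 0.0621). Among triple mutant libraries, bleomycin 1, bleomycin 2, control 1 and control 3 ended 4 each (0.0599 to 1, 0.0532 to 0.0873, 0.0571 to 0.0741 and 0.0551 to 0.0574), and bleomycin 3 and control 2 ended 3 each (0.0599 to 0.0781 and 0.0537 to 0.0672). Among the ratios of mean CPM over both genotypes, AT1TE88160 stood at 9.39 and at 17.1 without Col-0 control 3. AT2TE41390 stood at 38.6 and at 23.7 without Col-0 bleomycin 1, and AT3TE44530 at 11.6, at 7.35 without Col-0 bleomycin 2 and at 32.9 without triple mutant control 2. AT3TE83365 stood at 115 and at 48.6 without triple mutant bleomycin 2, and AT5TE71590 at 3.98 and at 6.23 without Col-0 control 1.

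**Figure D5:**
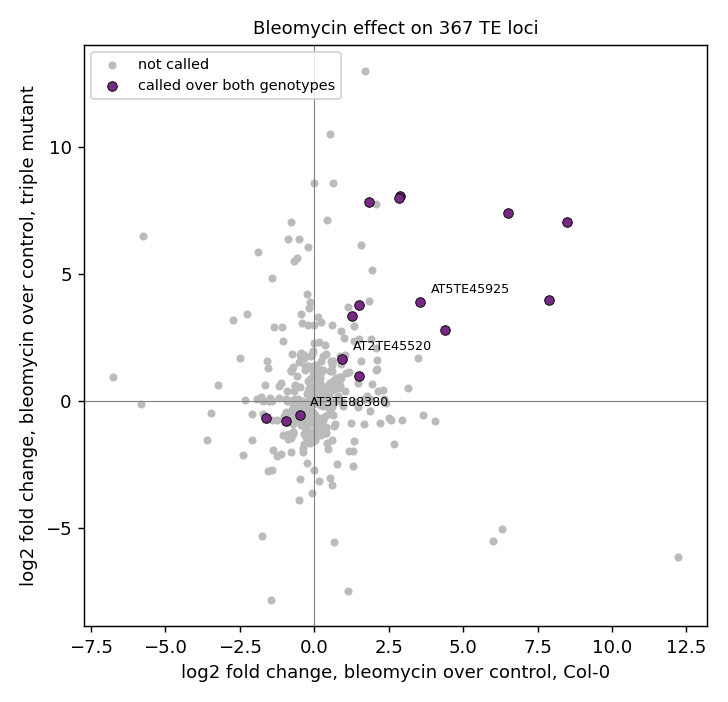
Fitted log2 fold change of bleomycin over control in the triple mutant (vertical axis) and in Col-0 (horizontal axis) for the 367 TE loci, with the 15 loci called over both genotypes in purple. The 12 called loci that rose lie in the upper right and the 3 that fell in the lower left; values beyond about 6 come from groups with few or no reads and depend on the fit's prior count.

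A count without a model gave few loci too. All 3 bleomycin libraries lay above all 3 control libraries in both genotypes for 9 of the 367 loci (2.45%), against a background of 7.98% of all loci, and below in both for 2 (0.545%), against 6.59%. Within the triple mutant, 43 TE loci were separated upwards (11.7%, background 16.0%) and 19 downwards (5.18%, background 13.3%). Within Col-0, 18 were separated upwards (4.90%, background 15.3%) and 15 downwards (4.09%, background 14.8%). The 2 that were lower in both genotypes were AT3TE88380 and AT1TE03900. AT1TE03900, chosen after its values were seen, had 0.264, 0.347 and 0.0504 CPM in triple mutant tips after bleomycin, 1.16, 1.73 and 1.60 in triple mutant controls, 0.421, 0 and 0.558 in Col-0 tips after bleomycin and 0.685, 0.573 and 1.36 in Col-0 controls.

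Called TE loci were a smaller share than called other loci in each of the 5 classes of mean reads over both genotypes. Among loci with a mean of at least 100 reads, 3 of 48 TE loci (6.25%) were called over both genotypes, against 4683 of 16926 other loci (27.7%). At means of 50 to 100 reads the shares were 4 of 35 (11.4%) and 174 of 1382 (12.6%), at 20 to 50 reads 1 of 78 (1.28%) and 99 of 1446 (6.85%), at 10 to 20 reads 5 of 97 (5.15%) and 62 of 993 (6.24%), and under 10 reads 2 of 109 (1.83%) and 61 of 867 (7.04%). Within each genotype the order was reversed at 50 to 100 reads. The TE and other shares there were 5.71% and 3.55% in the triple mutant and 2.86% and 2.68% in Col-0. In the triple mutant they were close at 10 to 20 reads (2.06% and 2.11%) and apart at 100 reads and over (2.08% and 9.05%). None of these differences was tested, and members of the lower classes could enter only through their higher libraries.

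No TE locus passed the test between the genotypes. In control medium 0 of the 367 loci were called between the triple mutant and Col-0 (background 0.0227%), after bleomycin 0 (background 0.0273%) and over both media 0 (background 0.0591%), all by edgeR. At an unadjusted p of at most 0.05, 30 passed on control medium (8.17%, background 5.22%), 11 after bleomycin (3.0%, background 1.05%) and 21 over both media (5.72%, background 3.69%). These shares were above the background, a difference that was not tested. DESeq2 called 3, 0 and 2 in the same comparisons (background 0.125%, 0.1% and 0.132%). The interaction of genotype and bleomycin gave 0 called loci (background 0.0%), with 23 at an unadjusted p of at most 0.05 (6.27%, background 1.88%) and 1 called by DESeq2, AT4TE34010 (background 0.00911%). In control medium the median fitted log2 difference was -0.22 over the TE loci and -0.03 over the other loci. With groups at 0 reads set to 3 reads the TE median was -0.22 as well, and 21 TE loci had no read in any triple mutant control, against 6 in Col-0 controls. Other loci without a read were likewise more in triple mutant controls, 154 against 71 in Col-0 controls. Triple mutant control 3, with 190 of the 367 loci at 0 and a median TE locus at 0 CPM, is in that group, and without it the TE median was -0.19 and that of the other loci -0.04.

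AT4TE34010 (661 bases) had 5.35, 5.68 and 3.21 CPM in triple mutant tips after bleomycin, 0 in each triple mutant control, 4.25, 0 and 3.09 in Col-0 tips after bleomycin and 5.02, 0 and 0 in Col-0 controls. Like AT2TE26110 it was empty in triple mutant controls and in some Col-0 libraries of both media. The 3 loci that DESeq2 called lower in the triple mutant on control medium were AT2TE26110, AT4TE34010 and AT5TE21300, and 2 of these had no read in the triple mutant controls.

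The libraries of the genotypes did not overlap in either medium for 4 loci, named here after their values were seen. AT2TE39860 and AT3TE88380 were higher in the triple mutant (0.545% of the 367, background 0.159%) and AT1TE57200 and AT5TE65370 lower (0.545%, background 0.369%). AT2TE39860 (331 bases) averaged 3.82 ± 0.813 CPM in triple mutant tips and 2.71 ± 0.510 CPM in Col-0 tips after bleomycin, and 4.05 ± 0.290 CPM in triple mutant controls and 2.49 ± 0.371 CPM in Col-0 controls (SD, n = 3 each). The difference over both media was 0.60 on the log2 scale (unadjusted p 0.0131, adjusted p 1). AT5TE65370 (4743 bases) had 23.4, 0 and 20 reads in triple mutant tips after bleomycin, against 468, 177 and 58.5 in Col-0 tips after bleomycin. On control medium it had 0, 26 and 0 reads in the triple mutant, against 179, 32 and 44 in Col-0. Its fitted difference over both media was -3.60 on the log2 scale (unadjusted p 0.00302, adjusted p 1), the triple mutant being lower. AT1TE57200 (4860 bases) had 34.7, 0 and 37 reads in triple mutant tips after bleomycin, against 49.0, 45 and 55 in Col-0 tips after bleomycin, and 0, 0 and 20 reads in triple mutant controls, against 51, 86 and 68 in Col-0 controls.

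The list of silencing genes held 43 genes related to silencing, and not all of them promote it, as with the demethylase ROS1. Of these, 41 met the read rule, and after bleomycin some were called higher and some lower. In the triple mutant 3 were called higher (DRM1, MORC6 and AT1G05490, a chromatin remodeller) and 3 lower (AGO4, DMS3 and SUVR2). The calls of AGO4 (adjusted p 0.0488) and DMS3 (0.0495) were close to the threshold and each was lost under 12 of 19 alternatives, 11 and 10 of them omissions of 1 library (up to 0.157 and 0.138), so that any of the 12 libraries except triple mutant bleomycin 3 ended the call of AGO4, and any except Col-0 bleomycin 1 and 2 that of DMS3. SUVR2 was lost in each genotype under 4 alternatives. In Col-0 2 were called higher (DRM1 and AT1G05490) and 3 lower (SUVH5, NRPD2B and SUVR2). These shares were 14.6% and 12.2% of 41, against backgrounds of 7.48% and 6.55%. Among non-TE loci with a mean of at least 100 reads, 9.05% were called in the triple mutant, 7.99% in Col-0 and 27.7% over both genotypes. The silencing genes were not split by level, and the differences of their shares from the background were not tested. Over both genotypes 4 were called higher and 8 lower (29.3%, background 23.2%), and 7 of these 12 held under all 18 alternatives (DRM1, MORC6, AT1G05490, AGO4, NRPD2B, DMS3 and SUVR2). Of these 7, DRM1 met the read rule only with bleomycin libraries. The other 5 (MET1 higher, and SUVH5, SHH1, RDR6 and ATXR5 lower) were lost under 5 to 12 alternatives. Between the genotypes 0 were called in either medium by edgeR.

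DRM1, a methyltransferase of the small RNA pathway, had 5.81, 8.13 and 4.28 CPM in triple mutant tips after bleomycin, 0, 0.420 and 0 in triple mutant controls, 6.26, 8.68 and 4.36 in Col-0 tips after bleomycin and 0 in each Col-0 control. It was 43.4-fold higher after bleomycin in the triple mutant (adjusted p 0.0124), where control 2 held all 16 control reads, so that the size rests on that library, and at least 250-fold higher in Col-0 (3 reads over the group, adjusted p 0.00303). With reads in a single control library, DRM1 met the read rule only with bleomycin libraries, and its adjusted p do not allow for that. AT1G05490 averaged 13.6 ± 2.00 CPM in triple mutant tips after bleomycin and 2.38 ± 1.53 in triple mutant controls, and 12.7 ± 5.31 CPM in Col-0 tips after bleomycin and 1.53 ± 0.526 in Col-0 controls (SD, n = 3 each). Both genes were apart in both genotypes, with reads in every bleomycin library. SUVR2, a SET-domain protein, averaged 9.70 ± 2.44 CPM in triple mutant tips after bleomycin and 18.3 ± 1.92 in triple mutant controls, and 11.3 ± 1.92 CPM in Col-0 tips after bleomycin and 20.8 ± 3.54 in Col-0 controls (SD, n = 3 each), with no overlap in either genotype. AGO4, the Argonaute that binds the small RNAs of this pathway, had a mean log2 fold change of -0.44 over both genotypes (SE 0.09, adjusted p 0.00543). That of NRPD2B, annotated as nuclear RNA polymerase D2B, was -2.03 (SE 0.33, adjusted p 0.00121). Whether NRPD2B acts in silencing was not tested. The group means of NRPD2B were low, 1.08 to 6.05 CPM. NRPD2A, also on the list and at 26.2 to 31.9 CPM, did not pass the test (-0.10, adjusted p 0.459).

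Of the other central genes, MET1 was called over both genotypes. MET1 averaged 73.4 ± 7.24 CPM in triple mutant tips after bleomycin, 56.1 ± 7.22 in triple mutant controls, 72.8 ± 8.50 in Col-0 tips after bleomycin and 66.8 ± 1.91 in Col-0 controls (SD, n = 3 each). Its mean log2 fold change after bleomycin was 0.26 (SE 0.09, adjusted p 0.0499), a call lost under 11 of 18 alternatives, among them the omission of bleomycin 1, bleomycin 3, control 1 and control 3 in the triple mutant and of bleomycin 1, bleomycin 3 and all 3 controls in Col-0. The mean log2 fold changes of DDM1 (-0.15, adjusted p 0.255), CMT3 (-0.15, adjusted p 0.261), DRM2 (-0.29, adjusted p 0.0989), NRPD1 (0.08, adjusted p 0.763), NRPE1 (-0.30, adjusted p 0.116) and the demethylase ROS1 (-0.18, adjusted p 0.489) did not pass the test. The list was chosen with results of these data known, and DNA methylation was not measured in these libraries.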

How the data were processed

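RNA-seq tables of 12 Arabidopsis root tip libraries were used. Salmon 0.9.1, which assigns reads to transcripts, and CASAVA are listed in the submitters' processing notes. Build, annotation and options: not given in the sources used here. The authors deposited, per the file headers, an estimated count and a TPM value for each transcript, with its length in bases. The labels name a library kit without strand marking, so sense and antisense reads cannot be told apart.

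Estimated counts were summed per locus, and each TE locus had 1 transcript. Loci with at least 10 reads in at least 3 libraries entered (21981, TE loci and others together), and counts were rounded for edgeR 4.0.16 (R 4.3.3), whose quasi-likelihood test used library totals as the only scaling, 1 fit over 12 libraries with group as the term, and Benjamini-Hochberg adjustment at 0.05. A locus that passed is called. The SE beside a fitted log2 fold change is its absolute value over the square root of the test's F statistic. It is an approximation and unreliable where a group has few or no reads. CPM is a read count scaled to the library's total (counts per 1000000 reads), and 3 reads equal 0.0734 to 0.0827 CPM. Of the reads, 0.808% to 5.14% fell on AT3G41768, a ribosomal RNA locus. Summed levels were compared by exact permutation. DESeq2 1.42.0, TMM scaling, totals without ribosomal and organelle loci, other filters, a replicate block, fits of the compared groups only and leaving out each library were the alternatives. The edgeR step was also run on simulated data, in which only loci of higher mean reads were changed and all loci had the same spread. That run does not cover TE loci of few reads. Named TE loci are the 10 with most reads, called loci up to 10 a comparison, and those at the threshold; others are said to be chosen after their values were seen, as is the set of 15, all given. Members and lists were chosen with earlier results of these data known.

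The series' design text calls the replicates biological and names no separate cultures or days, so p-values cover the spread of these samples, which may be technical. Replicate numbers come from the labels, which name no shared batch. Same-numbered libraries of the triple mutant and Col-0 after bleomycin deviated together from their group means (correlations 0.46, 0.24 and 0.26). In the other pairs of groups at least 1 correlation was under 0.1, although Col-0 control 1 and Col-0 bleomycin 1 reached 0.39. Any pairing is read from these values and not from the labels, and the main fit did not include it.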

Additional observations from a re-analysis of the deposited data

How the results depend on the processing

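The 4 differences in summed level stayed within the pooled SD of the 2 groups of their reported value under each alternative run, and ranged over -51.8 to 35.2 CPM for Col-0 and -66.8 to 11.7 CPM for the triple mutant (bleomycin minus control), and -64.6 to 13.9 CPM on control medium and -88.0 to -1.12 CPM after bleomycin (triple mutant minus Col-0), leaving out a library. The ranges for Col-0, for the triple mutant and on control medium cross 0, so the sign of those differences depended on the library left out. Called TE loci after bleomycin numbered 1 in Col-0, and 5 with DESeq2, 2 without a filter (AT5TE45925 and AT5TE87550), 2 in a fit of the compared groups only (AT5TE45925 and AT2TE35695) and 0 to 3 leaving out a library. In the triple mutant they numbered 7, and 23 with DESeq2, 10 without a filter (sharing 6 of the 7), 6 in a fit of the compared groups only (sharing 1) and 0 to 8 leaving out a library. Over both genotypes they numbered 15, and 24 with DESeq2 and 8 to 21 leaving out a library. DESeq2 also called 3 TE loci between genotypes on control medium, 1 for the interaction and 2 over both media, where edgeR called 0. Silencing genes called after bleomycin ranged over 2 to 7 in Col-0, 2 to 6 in the triple mutant and 7 to 14 over both genotypes when a library was left out. Apart from DESeq2, these alternatives are given without the share of all tested loci called. A change in these counts may therefore not be particular to TE loci or silencing genes.

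With the replicate number as a block, called TE loci numbered 4 in Col-0, 21 in the triple mutant (14 higher, 7 lower, sharing 6 of the 7) and 25 over both genotypes (all 15 among them), and silencing genes called in Col-0 numbered 8. The share of all tested loci called under the block is not given here, so these counts have no background beside them. The block left the count between genotypes after bleomycin, the groups with no same-numbered correlation under 0.1, at 0. The labels give no shared source for a number in any comparison. Still, 12 of 12 libraries correlated best with libraries of their own number, a hint from the data and not the design. Of 18 same-numbered pairs, 11 correlated above 0.1 (-0.03 to 0.46). Loci of few reads limit the precision of most TE values.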
